A study of Mus musculus with 10 samples.

Results

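Amino acid transporters were followed here as 7 families of solute carriers: the mouse genes whose symbols start with Slc1a, Slc3a, Slc6a, Slc7a, Slc36a, Slc38a or Slc43a, with Slc7a2 and Slc7a11 left out. GENCODE M21 holds 65 such genes and the deposited tables list 64 of them, among 28987 genes in all. A level of at least 1 TPM (a length-scaled share of all transcripts of a library) in at least 2 of the 10 libraries was reached by 31, and these were tested among 14166 genes. They comprise 4 genes of Slc1a, 1 of Slc3a, 6 of Slc6a, 8 of Slc7a, 3 of Slc36a, 6 of Slc38a and 3 of Slc43a. The name rule also takes in Slc7a6os, which encodes an RNA polymerase II import factor and no transporter, and Slc43a3, whose product carries purine nucleobases.

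Amino acids enter cells through carriers that differ in what they bind and what drives them. The Slc1a, Slc6a, Slc36a and Slc38a proteins mostly couple uptake to sodium or protons, whereas the Slc7a light chains exchange one amino acid for another and many of them need the heavy chain Slc3a2 to reach the cell surface. Cells short of amino acids raise several of these genes through the transcription factor ATF4, and lysosomal members pass information on amino acid supply to the kinase complex mTORC1. In fat, Slc7a10 (Asc-1) is known as a surface marker of white adipocytes and Slc36a2 (PAT2) as one of brown and beige adipocytes.

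The cells came from inguinal fat of male C57BL/6 mice of 6 to 8 weeks, digested and grown to confluence, and are labelled primary white adipocytes. There were 5 groups of 2 libraries, all harvested at 24 h. The treatments were recombinant BAFF (a B-cell survival cytokine of the TNF family) at 500 ng/ml, recombinant APRIL (a related cytokine) at 500 ng/ml, lipopolysaccharide (LPS, a bacterial cell wall component) at 100 ng/ml and norepinephrine (an adrenergic agonist) at 1 mM. The fifth group received saline. The sources used here do not say if a group's 2 libraries are of different mice or culture dishes. Each p-value is thus set against the spread of these libraries alone, which may be technical.

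Over all genes, both libraries labelled APRIL differed from the other 8. They correlated with those at 0.850 to 0.886 on the log2(TPM + 1) scale, while libraries of other groups correlated with each other at 0.948 to 0.991. Transcripts of 4 Y-linked genes (Ddx3y, Eif2s3y, Kdm5d, Uty) added up to 0.489 and 0.775 TPM there, against 93.8 to 123 TPM elsewhere, although every library is labelled male. All results on this group therefore refer to the libraries labelled APRIL. Adipocyte markers were abundant in every library, at 2939 to 6392 TPM in sum for the APRIL label and 6052 to 16912 TPM for the others. Preadipocyte and fibroblast markers summed to 2095 and 2636 TPM under the APRIL label and to 7832 to 13036 TPM elsewhere, and macrophage markers to 301 to 1641 TPM in those 8 libraries. Macrophage markers were higher in replicate 1 than in replicate 2 of every group, at 1318 and 440 TPM with saline. Skeletal muscle markers were higher in replicate 2, at 14.3 and 126 TPM with saline, except under the APRIL label. The main tests did not use replicate numbers, so such differences are part of the spread. Lymphocyte markers did not exceed 3.69 TPM in sum.

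Slc1a5 (ASCT2), a sodium-dependent carrier of glutamine and other neutral amino acids on the plus strand of chromosome 7 (16781340-16798274 in mm10, with GENCODE M21 limits as for all positions of genes here), had by far the highest level of the members in the 8 libraries other than APRIL. In both libraries labelled APRIL, Slc3a2 was higher than Slc1a5. The level of Slc1a5 was 418 and 538 TPM with BAFF, 552 and 277 TPM in libraries labelled APRIL, 229 and 293 TPM with LPS, 641 and 622 TPM with norepinephrine, and 374 and 471 TPM with saline. It held from 17.6% to 46.2% of the summed TPM of the members. The lowest share fell in a library labelled APRIL and the highest in a norepinephrine library. Both norepinephrine libraries lay above both saline libraries in this gene, as in 34.0% of all genes. Both LPS libraries lay below them, as in 25.5% of all genes. Neither difference from saline passed the test described below.

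**Figure D1:**
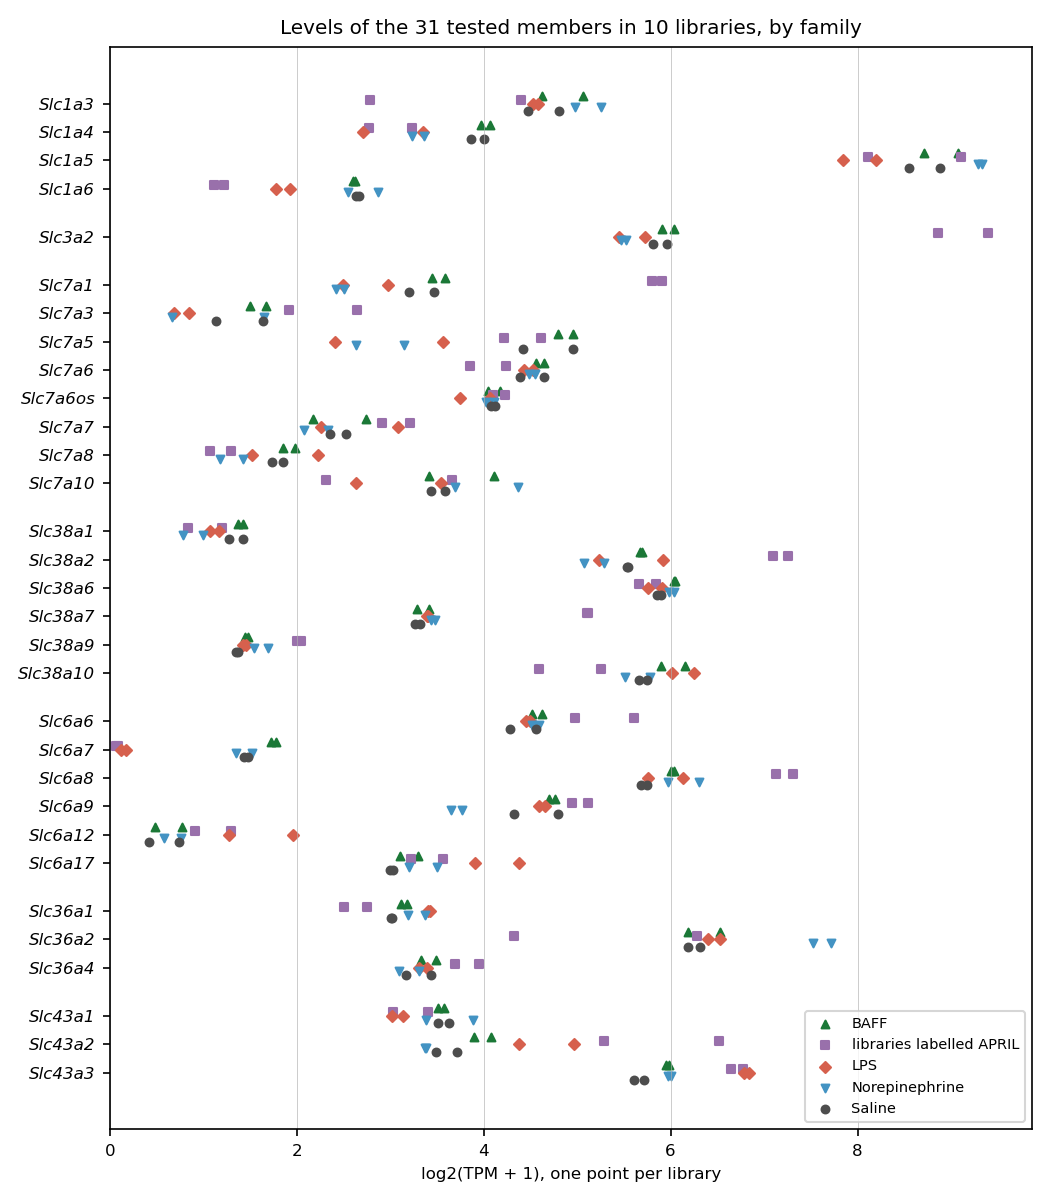
Level of each of the 31 tested transporter genes in every library, as log2(TPM + 1) on the horizontal axis, with genes in rows by family and one point per library, coloured and shaped by group. Slc1a5 lies far to the right in the groups other than APRIL. Slc3a2 and Slc7a1 are set apart in the libraries labelled APRIL, where Slc3a2 lies to the right of Slc1a5. Slc6a7 lies near 0 with LPS and in the libraries labelled APRIL.

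Over the 8 libraries other than APRIL, 7 members averaged at least 50 TPM, 16 lay between 5 and 50 TPM and 8 lay below 5 TPM. After Slc1a5 at 448 TPM, the order was Slc36a2 at 110.1 TPM, Slc43a3 at 71.2 TPM, the creatine transporter Slc6a8 at 61.6 TPM, Slc38a6 at 60.5 TPM, Slc38a10 at 58.5 TPM and Slc3a2 at 52.9 TPM. Slc38a6 and Slc38a10 cannot be ordered, since their values overlapped within groups. Slc6a8 and Slc38a6 cannot be ordered either, since Slc6a8 was the lower with saline and the values overlapped with BAFF, LPS and norepinephrine. Values of Slc3a2 overlapped with those of Slc38a6 with BAFF and saline. Slc38a6 had 65.2 and 64.5 TPM with BAFF, 49.7 and 56.6 TPM in libraries labelled APRIL, 53.0 and 59.0 TPM with LPS, 62.4 and 64.5 TPM with norepinephrine, and 56.8 and 58.4 TPM with saline. The level of Slc38a6 is uncertain, because its longest transcript holds stretches at least 95% identical over 200 bases or more to transcripts of many other genes, in both orientations. The longest was 98.3% identical over 3260 bases to a transcript of Gm42860, on the other strand. In the same orientation, a stretch was 95.4% identical over 3185 bases to a transcript of D10Wsu102e.

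Among the Slc7a genes the highest average was that of Slc7a6 (y+LAT2), which exchanges cationic for neutral amino acids, at 22.1 TPM. It had 22.5 and 24.0 TPM with BAFF, 17.8 and 13.5 TPM in libraries labelled APRIL, 20.6 and 22.0 TPM with LPS, 22.4 and 21.4 TPM with norepinephrine, and 20.0 and 24.0 TPM with saline. Both libraries labelled APRIL lay below saline, and the other groups overlapped with it. Slc7a10, the white adipocyte marker, averaged 11.8 TPM and varied widely within groups, with 9.66 and 16.3 TPM with BAFF and 5.23 and 10.7 TPM with LPS, against 9.86 and 11.0 TPM with saline. The lowest tested member was the betaine and GABA transporter Slc6a12 at 0.950 TPM, which passed the filter only through both LPS libraries and 1 library labelled APRIL, so its difference from saline is partly built into the filter.

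Further tested members passed in none of the comparisons of BAFF, LPS or norepinephrine with saline. The glutamate transporter Slc1a3 (EAAT1) averaged 27.1 TPM, Slc36a4 8.996 TPM, the LAT2 light chain Slc7a8 2.37 TPM, the cationic carrier Slc7a3 1.43 TPM and the system A carrier Slc38a1 1.31 TPM over the 8 libraries. Slc7a6os had 12.4 to 17.7 TPM in all 10. Exons of Slc6a6, Slc6a9, Slc7a7, Slc7a10, Slc38a9, Slc38a10 and Slc43a2 share part of their bases with a gene on the opposite strand. Without counting by strand, reads that lie within the shared bases cannot be told apart. Slc6a9 shared 1429 of 5141 exonic bases with Ccdc24, and Slc38a9 shared 182 of 16704 with Gm47827.

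The 33 members listed but not tested were near 0. Listed at 0 in all 10 libraries were 4 of them (Slc6a14, Slc6a15, Slc6a19os and Slc6a21), and 27 stayed at or below 0.5 TPM throughout. Just outside the filter were Slc38a4 and Slc6a13, each with 1 library at 1 TPM or more, with highest values of 1.31 and 1.05 TPM. Just inside it, Slc6a12 reached 1 TPM in 3 libraries and the proline transporter Slc6a7 in 6. The norepinephrine transporter Slc6a2, which clears this transmitter from nerve endings, did not exceed 0.156 TPM in any library, including those treated with norepinephrine.

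Stretches of promoter show where 3 response elements fixed for the search occur in tested members. RefSeq windows of 250 bases before the start (GRCm38.p6) were at hand for 22 of the 31, and both strands were read for the amino acid response element core bound by ATF4 and its partners (TGATGNAA), the cAMP response element (TGACGTCA) and an NF-kB core (GGGANTTTC). Each was found in 1 tested member: the first in Slc7a7, the second in Slc38a6 and the third in Slc6a12. Slc7a7 held another match of the first element, at -141 from a different start (chr14:54418062-54418101), which is not printed below. Over all 27025 genes with a window the shares were 3.91%, 1.77% and 1.11%. An E-box with a flanking T (TCACGTG), of the kind bound by TFEB and other basic helix-loop-helix factors, was searched after the values were seen and occurred in Slc1a6, Slc36a1 and Slc38a7, against 3.58% of all genes. The stretches follow, 5′ to 3′ along each gene, with the match in capitals.
Slc7a7, chr14:54417922-54417952, minus strand, match 243 bases before a start: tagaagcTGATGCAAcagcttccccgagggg
Slc38a6, chr12:73286711-73286750, plus strand: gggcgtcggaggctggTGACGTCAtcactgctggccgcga
Slc6a12, chr6:121342426-121342466, plus strand, match on the opposite strand: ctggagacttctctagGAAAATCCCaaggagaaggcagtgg
Slc1a6, chr10:78780448-78780486, plus strand, match on the opposite strand: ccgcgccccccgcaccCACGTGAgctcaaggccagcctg
Slc36a1, chr11:55204293-55204331, plus strand, match on the opposite strand: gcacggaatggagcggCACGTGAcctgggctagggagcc

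Slc7a1 and Slc43a2, the members with a printable stretch that stood highest above saline in the libraries labelled APRIL, held none of the 4 motifs in their windows. Their last 80 bases before a start are given for comparison with the stretches above.
Slc7a1, chr5:148399905-148399984, minus strand: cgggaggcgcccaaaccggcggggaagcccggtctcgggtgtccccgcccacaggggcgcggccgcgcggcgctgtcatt
Slc43a2, chr11:75531614-75531693, plus strand: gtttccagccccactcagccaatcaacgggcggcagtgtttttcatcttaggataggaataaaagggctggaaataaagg
The 36 windows of tested members had a median GC content of 60.6%, against 52.4% over all 32851 windows. Members with several starts count more than once. The windows of all genes, used for the motif shares too, include genes that were not tested, and tested genes alone were not summarised. A missing match says only that these letters are not in this window.

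BAFF against saline addresses whether this cytokine acts on adipocytes, and no transporter passed the test. In limma 0 of 31 members had an adjusted p under 0.05, as did 0.0141% of all tested genes, and 1 member had an unadjusted p under 0.05, as did 2.84% of all genes. Differences ran from -0.04 to 0.39 on the log2(TPM + 1) scale with a median of 0.14, beside a median of 0.11 over all genes, a shift that median-ratio scaling brought to -0.0017. Both BAFF libraries exceeded both saline libraries in 11 members (40.4% of all genes) and lay below them in 1 (3.76%).

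The member with an unadjusted p under 0.05 in limma was Slc43a3, which was higher, with 60.7 and 62.4 TPM with BAFF, against 47.7 and 51.6 TPM with saline. This difference of 0.31 ± 0.09 (SE) had an adjusted p of 0.996. The heavy chain Slc3a2 had 64.6 and 59.1 TPM with BAFF, against 55.4 and 61.4 TPM with saline, and its light chain Slc7a5 had 26.8 and 30.1 TPM, against 20.3 and 30.1 TPM with saline. Both genes overlapped between the groups. The 95% interval of the difference stayed within 1 log2 unit of 0 for 25 members, and the limits over all 31 ran from -1.09 to 1.38.

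**Figure D2:**
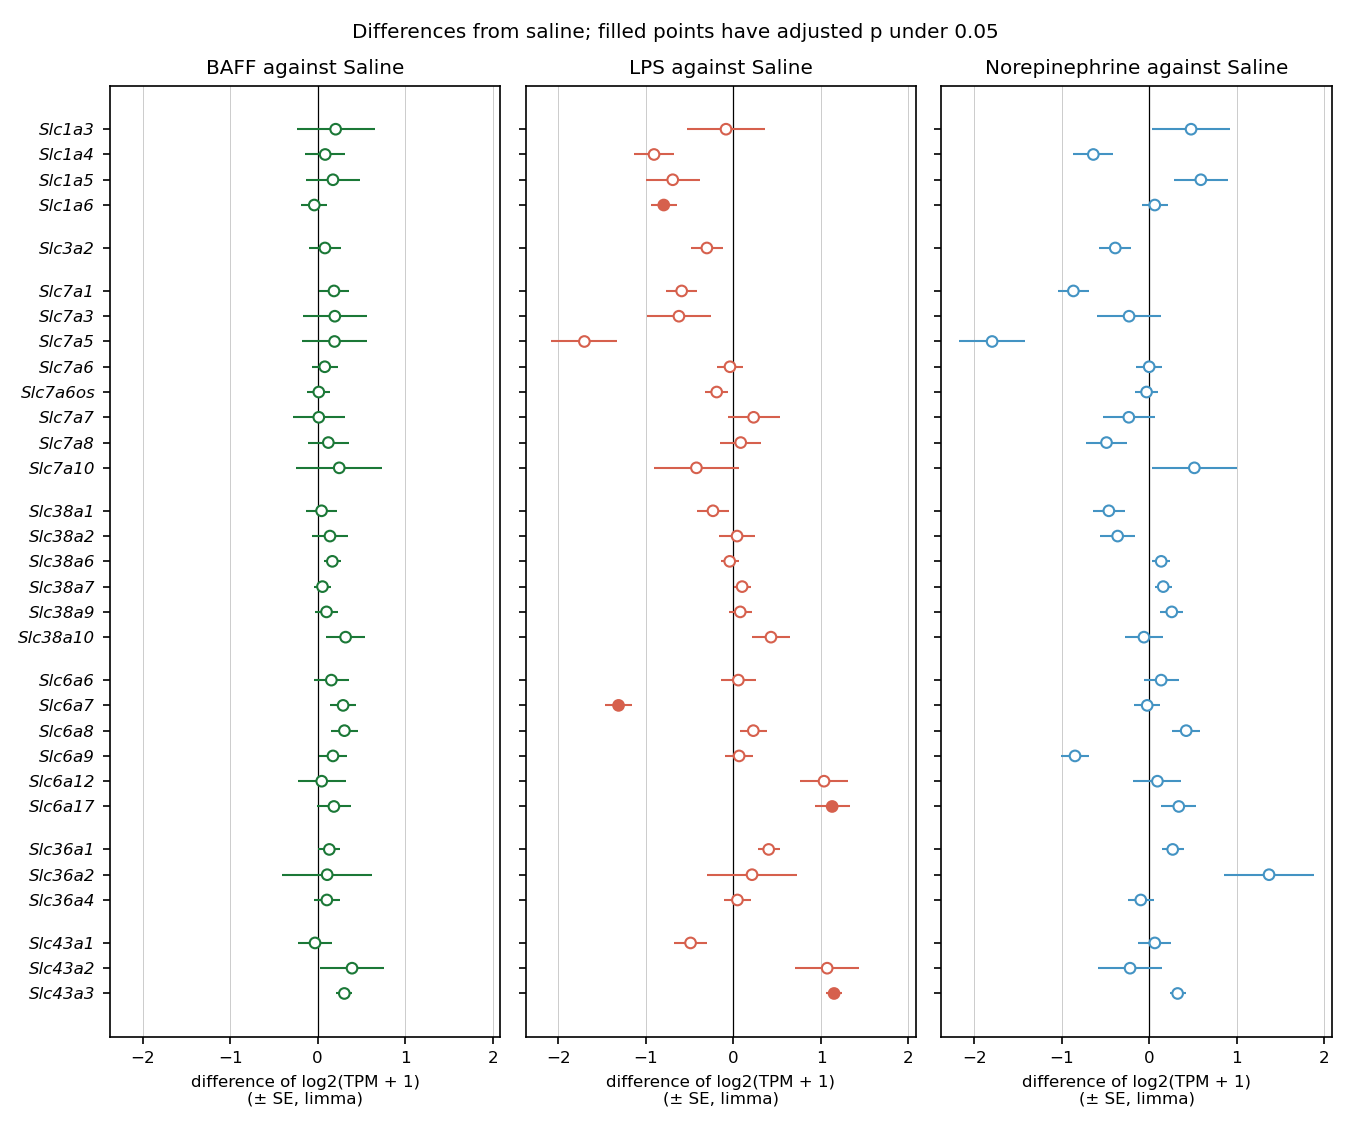
Difference of log2(TPM + 1) from saline (horizontal axis, ± SE from limma) for the 31 tested transporter genes in rows, with BAFF, LPS and norepinephrine in separate panels and filled points for adjusted p under 0.05. All points of the BAFF panel are open and lie between -0.04 and 0.39, and the filled points are the 4 genes Slc1a6, Slc6a7, Slc6a17 and Slc43a3 of the LPS panel.

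With LPS, 2 transporters rose and 2 fell relative to saline, a share of 12.9% of the 31 members beside 3.80% of all tested genes. Slc43a3 and Slc6a17 rose (2.87% of all genes rose) and Slc6a7 and Slc1a6 fell (0.932% of all genes fell). The libraries did not overlap with saline in 21 members, 10 of them above (24.2% of all genes) and 11 below (25.5%). Differences ran from -1.70 to 1.15 with a median of 0.04, and the median over all genes was -0.01.

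Slc43a3, a purine nucleobase transporter on chromosome 2 (84936579-84958509), had 113 and 109 TPM with LPS, against 47.7 and 51.6 TPM with saline. Norepinephrine libraries had 61.8 and 62.9 TPM. Both LPS libraries were above every BAFF, norepinephrine and saline library. The difference was 1.15 ± 0.09 (SE) on the log2(TPM + 1) scale, with an adjusted p of 0.00104, and it passed the threshold under each of the 14 alternatives tried. Slc6a17 (NTT4), known for loading neutral amino acids into synaptic vesicles, had 13.95 and 19.8 TPM with LPS, against 7.19 and 6.96 TPM with saline. It had 7.59 and 8.81 TPM with BAFF, 8.18 and 10.3 TPM with norepinephrine, and 8.36 and 10.8 TPM in the libraries labelled APRIL, so the LPS libraries were the highest of all. The difference of 1.13 ± 0.20 had an adjusted p of 0.0234. The call was lost when LPS replicate 2 (adjusted p of 0.0870), Saline replicate 1 (0.122) or Saline replicate 2 (0.163) was left out, with no filter on low values (0.0562) and with only the compared libraries fitted (0.0981).

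Slc6a7 (PROT), a high-affinity proline transporter best known from brain, was nearly absent with LPS, at 0.0844 and 0.129 TPM, against 1.71 and 1.79 TPM with saline. BAFF libraries had 2.43 and 2.30 TPM and norepinephrine libraries 1.87 and 1.54 TPM, so the low values lay with LPS and in the libraries labelled APRIL. Slc6a7 reached 1 TPM only in BAFF, norepinephrine and saline libraries, so its fall with LPS is partly built into the filter. The difference of -1.31 ± 0.15 had an adjusted p of 0.00445, which became 0.0607 without Saline replicate 2. Slc1a6 (EAAT4), a glutamate transporter, had 2.43 and 2.81 TPM with LPS, against 5.22 and 5.33 TPM with saline, and its values were 5.07 and 5.15 TPM with BAFF and 4.86 and 6.33 TPM with norepinephrine. Its difference of -0.80 ± 0.15 had an adjusted p of 0.0280 and passed in none of the 4 fits that left out an LPS or saline library, with adjusted p of 0.162 and 0.0640 without LPS replicates 1 and 2 and of 0.147 and 0.1997 without Saline replicates 1 and 2. It was also lost with no filter on low values (0.0726) and with only the compared libraries (0.0916). Summed adipocyte markers were also lower with LPS, at 6052 to 6694 TPM, against 9686 to 10792 TPM with saline, and their part in these values was not tested. Of 13 tested adipocyte markers 1 fell and 5 were lower before adjustment, while preadipocyte and fibroblast markers summed to 10596 and 9831 TPM with LPS, against 10397 and 9172 TPM with saline. Of 9 tested markers of this second list 3 rose, 5 were higher before adjustment and the median difference was 0.70, and of 6 smooth muscle and pericyte markers 2 fell. Over all genes 2.87% rose and 0.932% fell with LPS in limma, and the median difference was -0.01. Before adjustment 16.5% of all genes had a p under 0.05 in either direction. In bulk RNA of mixed cells, fewer cells of a type and less RNA per cell cannot be told apart.

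Several larger LPS differences missed the threshold. Slc7a5 (LAT1), the light chain that brings large neutral amino acids such as leucine into cells, had 4.30 and 10.8 TPM with LPS, against 20.3 and 30.1 TPM with saline. The groups did not overlap, but the LPS libraries differed from each other by a wide margin, and the difference of -1.70 ± 0.38 had an adjusted p of 0.0526. It passed under 4 of 14 alternatives. Slc43a2 (LAT4), an efflux carrier of branched-chain amino acids and phenylalanine, had 30.2 and 19.7 TPM with LPS, against 12.1 and 10.2 TPM with saline, with a difference of 1.07 ± 0.37 and an adjusted p of 0.189. BAFF libraries had 15.9 and 13.9 TPM and norepinephrine libraries 9.37 and 9.45 TPM. Leaving the libraries labelled APRIL out of the fit gave it an adjusted p of 0.0315. That fit called 5 members with LPS, 3 higher and 2 lower, and 6.51% of all genes.

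Other members with LPS did not pass the test. The y+LAT1 light chain Slc7a7, which is rich in macrophages, had 7.46 and 3.79 TPM with LPS, against 4.76 and 4.11 TPM with saline, and macrophage markers summed to 1641 and 443 TPM in the same LPS libraries, against 1318 and 440.4 TPM with saline. The glycine transporter Slc6a9 had 24.2 and 23.1 TPM with LPS, against 19.0 and 26.8 TPM with saline, and the groups overlapped. For Slc3a2 the LPS values were 51.8 and 42.7 TPM, against 55.4 and 61.4 TPM with saline, with an adjusted p of 0.484. Slc6a8 had 69.0 and 53.0 TPM with LPS, against 50.5 and 52.6 TPM with saline, with an adjusted p of 0.569.

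**Figure D3:**
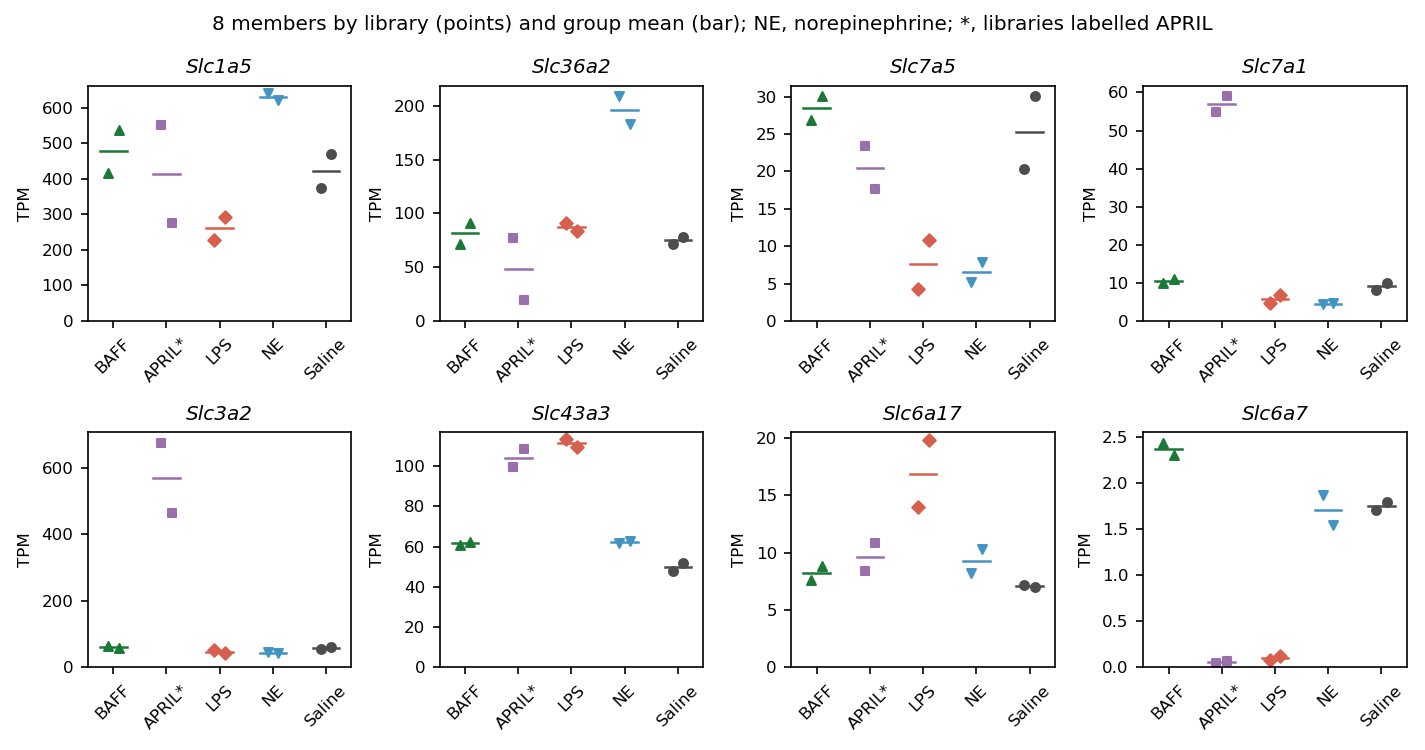
TPM in each library (points) and group mean (bar) for Slc1a5, Slc36a2, Slc7a5, Slc7a1, Slc3a2, Slc43a3, Slc6a17 and Slc6a7, with the 5 groups along the horizontal axis of each panel. Slc36a2 and Slc1a5 are highest with norepinephrine, Slc7a5 is lowest with LPS and norepinephrine, and both LPS points of Slc6a7 lie at or below 0.129 TPM.

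Norepinephrine against saline gave no called transporter, with 0 of 31 at an adjusted p under 0.05 in limma, beside 0.699% of all tested genes (0.614% higher and 0.0847% lower). Before adjustment, p was under 0.05 for 3 members that were higher and 5 that were lower, beside 17.6% of all genes in either direction. Both libraries lay above saline in 11 members (34.0% of all genes) and below in 10 (22.9%). The members of smallest p were Slc6a9, Slc7a1 and Slc7a5, all below saline, with adjusted p of 0.0632, 0.0696 and 0.0750.

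Slc6a9 (GlyT1), which takes up glycine, had 11.6 and 12.6 TPM with norepinephrine, against 19.0 and 26.8 TPM with saline, and its norepinephrine libraries were the lowest of all 10. It had 26.2 and 24.9 TPM with BAFF and 33.7 and 29.8 TPM where the label was APRIL. Its difference was -0.85 ± 0.16 (SE). It shares exonic bases with Ccdc24 and B4galt2 on the opposite strand, and whether reads were counted by strand is not given in the sources used here. Slc7a1 (CAT1), a carrier of arginine and lysine, had 4.34 and 4.69 TPM with norepinephrine, against 8.16 and 10.03 TPM with saline, a difference of -0.87 ± 0.17. It had 9.87 and 11.04 TPM with BAFF and 4.66 and 6.87 TPM with LPS. Slc7a5 had 5.21 and 7.86 TPM with norepinephrine, against 20.3 and 30.1 TPM with saline. No library of these groups overlapped in either gene, and the difference of -1.80 ± 0.38 for Slc7a5 was the largest of any member in this comparison.

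On the other side stood Slc36a2 (PAT2), a proton-coupled carrier of small amino acids on chromosome 11 (55158470-55185077). It had 209 and 183 TPM with norepinephrine, against 72.0 and 78.4 TPM with saline, 72.0 and 91.4 TPM with BAFF and 91.0 and 83.6 TPM with LPS. The norepinephrine libraries were above all others, yet the difference of 1.37 ± 0.52 had an adjusted p of 0.234. The libraries labelled APRIL enter the shared estimate of spread and had 77.0 and 19.0 TPM for this gene. Without them the adjusted p was 0.00753, and that fit called 3 members, with Slc36a2 higher and Slc6a9 and Slc7a1 lower (adjusted p of 0.0335 and 0.0471), beside 5.95% of all genes.

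Slc1a5 likewise had its highest values with norepinephrine, at 641 and 622 TPM, against 374 and 471 TPM with saline, a difference of 0.59 ± 0.31 with an adjusted p of 0.361. Adipocyte markers summed to 16454 and 16912 TPM in these norepinephrine libraries, against 9686 and 10792 TPM with saline. In limma 0 of 13 passed, beside 0.699% of all genes, and 4 were higher before adjustment, beside 17.6% in either direction. The fit without the libraries labelled APRIL called 5 of the 13 higher, beside 5.95% of all genes in either direction. Smooth muscle and pericyte markers summed to 878 and 1028 TPM with norepinephrine, against 1458 and 1543 TPM with saline. The part of both lists in the values of Slc1a5 and Slc36a2 was not tested. The cAMP response element match of Slc38a6 shown above stands beside a difference of 0.14 ± 0.10 with norepinephrine, with an adjusted p of 0.525. Slc3a2 had 45.1 and 43.5 TPM with norepinephrine, against 55.4 and 61.4 TPM with saline, a difference of -0.39 with an adjusted p of 0.312. For Slc6a8 the values were 77.9 and 61.7 TPM with norepinephrine and 64.7 and 63.2 TPM with BAFF, against 50.5 and 52.6 TPM with saline. The smallest norepinephrine difference was that of Slc7a6, with a 95% interval of -0.34 to 0.34.

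Since LPS and norepinephrine share their saline libraries, they were also set against each other directly, a comparison added after the values were seen. LPS was higher in Slc43a3 and Slc6a9 and lower in Slc6a7, Slc1a6 and Slc1a5, 5 of 31 members beside 7.81% of all genes (3.62% higher and 4.19% lower). The low LPS values of Slc6a7 are partly built into the filter here too. For Slc1a5 the values were 229 and 293 TPM with LPS, against 641 and 622 TPM with norepinephrine, and the difference of -1.28 ± 0.31 had an adjusted p of 0.0459. Each fit that left out one of these 4 libraries ended that call, with adjusted p of 0.107 to 0.183. Slc6a9 also lost its call in each of them, at 0.0640 to 0.104, and Slc1a6 in those without LPS replicate 1 and without Norepinephrine replicate 2, at 0.0849 and 0.0847. Slc43a3 and Slc6a7 kept theirs under all 14 alternatives, with a difference of 0.83 ± 0.09 and an adjusted p of 0.00331 for Slc43a3.

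Values were set side by side for Slc43a1 with Slc43a3 and for Slc36a1 with Slc36a2, which neighbour each other. Other pairs of neighbours were not examined. Slc43a1 (LAT3) lies on chromosome 2 (84838850-84863594) beside Slc43a3. It had 7.82 and 7.12 TPM with LPS, against 10.4 and 11.4 TPM with saline, a difference of -0.49 ± 0.19, whereas Slc43a3 rose. Slc36a1 lies on chromosome 11 (55204350-55236330) beside Slc36a2 and encodes a lysosomal proton-coupled carrier. With norepinephrine it had 8.15 and 9.34 TPM, against 7.11 and 7.05 TPM with saline, a difference of 0.27 ± 0.13 beside 1.37 for Slc36a2. Neither difference of this last pair passed the test, and the difference between neighbours was not tested.

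Over the 4 groups other than APRIL, an F test on 8 libraries found a difference in 10 members, beside 12.0% of all tested genes. These were Slc43a3, Slc6a7, Slc36a2, Slc6a9, Slc1a6, Slc1a5, Slc43a2, Slc7a1, Slc7a5 and Slc6a17, in order of adjusted p from 0.00274 to 0.0351. They came from Slc1a (2 of 4 tested), Slc36a (1 of 3), Slc43a (2 of 3), Slc6a (3 of 6) and Slc7a (2 of 8), with 0 of 6 from Slc38a and 0 of 1 from Slc3a. Slc1a4 (ASCT1), which carries serine and alanine, missed the threshold at 0.0505, with 5.51 and 9.19 TPM with LPS, 8.37 and 9.27 TPM with norepinephrine, and 13.6 and 15.02 TPM with saline. The count was 4 without either BAFF library or either norepinephrine library and 5 without either saline library. Over all 5 groups 20 members differed, beside 60.4% of all genes.

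None of the 6 Slc38a genes passed that F test. The system A carrier Slc38a2 (SNAT2), which accumulates neutral amino acids with sodium, had 50.7 and 49.9 TPM with BAFF, 36.7 and 59.7 TPM with LPS, 32.6 and 38.0 TPM with norepinephrine, and 45.6 and 45.3 TPM with saline. Slc38a7, which exports glutamine from lysosomes, had 9.68 and 8.76 TPM with BAFF, 9.57 and 9.48 TPM with LPS, 10.2 and 9.80 TPM with norepinephrine, and 8.64 and 9.01 TPM with saline. The arginine sensor Slc38a9 had 1.55 to 2.24 TPM. None of the 3 had an adjusted p under 0.3 against saline in these treatments.

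In the libraries labelled APRIL, 17 of 31 members passed the test, 11 higher and 6 lower than saline, a share of 54.8% beside 58.1% of all tested genes. Higher calls made up 33.1% and lower calls 25.0% of all genes, and with median-ratio scaling the members divided into 9 higher and 8 lower. The libraries lay above saline in 15 members (42.5% of all genes) and below in 11 (35.2%). The share of members called was thus near that of all genes. Adipocyte markers summed to 6392 and 2939 TPM in these libraries, against 9686 and 10792 TPM with saline, with 1 of 13 higher and 7 lower. Preadipocyte and fibroblast markers summed to 2095 and 2636 TPM, against 10397 and 9172 TPM with saline (5 of 9 lower), and smooth muscle and pericyte markers to 383 and 612 TPM, against 1458 and 1543 TPM with saline (5 of 6 lower). The part of these markers in the results was not tested. An effect of the agent and any other difference of these libraries, such as the one in Y-linked transcripts, cannot be told apart.

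Slc3a2, the heavy chain, was the member farthest from saline, with 674 and 463 TPM in the libraries labelled APRIL, against 55.4 and 61.4 TPM with saline. The difference was 3.24 ± 0.18 (SE) with an adjusted p of 1.29e-05. Of the 8 tested Slc7a genes, 3 lay above saline and 2 below, beside 42.5% and 35.2% of all genes. Calls were 1 higher, Slc7a1, and 1 lower, Slc7a6, beside 33.1% and 25.0% of all genes. The light chain Slc7a5 had 23.4 and 17.6 TPM, against 20.3 and 30.1 TPM with saline, with an adjusted p of 0.559. The light chain Slc7a6 fell, with a difference of -0.47 ± 0.15 and an adjusted p of 0.0261. That call for Slc7a6 was lost without APRIL replicate 2, at 0.109, and without Saline replicate 2, at 0.160.

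Slc7a1 had 54.8 and 59.0 TPM in the libraries labelled APRIL, against 8.16 and 10.03 TPM with saline, a difference of 2.52 ± 0.17 with an adjusted p of 2.63e-05. Slc43a2 had 90.7 and 38.1 TPM, against 12.1 and 10.2 TPM with saline, a difference of 2.30 ± 0.37. The 2 libraries labelled APRIL were far apart in Slc43a2, but both exceeded every other library. Slc6a8, the creatine transporter on the X chromosome, had 138 and 158 TPM, against 50.5 and 52.6 TPM with saline. Its difference was 1.501 ± 0.16 with an adjusted p of 0.000152.

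The lysosomal glutamine carrier and the arginine sensor were both higher there. Slc38a7 had 33.5 and 33.8 TPM in the libraries labelled APRIL, against 8.64 and 9.01 TPM with saline, the smallest adjusted p of any member (1.17e-05). Slc38a9 had 3.12 and 3.00 TPM, against 1.55 and 1.58 TPM with saline. The plasma membrane carrier Slc38a2 had 151 and 136 TPM, against 45.6 and 45.3 TPM with saline, with a difference of 1.63 ± 0.20. Slc36a1 was lower, with a difference of -0.38 ± 0.13 and an adjusted p of 0.0306, and leaving out APRIL replicate 1 (0.106), Saline replicate 1 (0.115) or Saline replicate 2 (0.106) ended the call. The E-box letters are thus found in a member that was higher there, Slc38a7, and in the lower Slc36a1 and Slc1a6, whose stretches are shown above.

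Lower members included the proline and glutamate carriers. Slc6a7 had 0.0469 and 0.0658 TPM in the libraries labelled APRIL, against 1.71 and 1.79 TPM with saline, and Slc1a6 had 1.17 and 1.34 TPM, against 5.22 and 5.33 TPM with saline. As with LPS, the difference of Slc6a7 is partly built into the filter. Slc43a3 was higher, with 99.2 and 108 TPM, against 47.7 and 51.6 TPM with saline. The saline libraries are the ones used for LPS. In all, 10 of the 17 calls held under every one of the 13 alternatives, and the other 7 (Slc1a4, Slc36a1, Slc36a4, Slc38a10, Slc6a6, Slc6a9 and Slc7a6) did not. Of these, Slc1a4 was lost without APRIL replicate 2 (0.0544) and Saline replicate 2 (0.0528), and Slc36a4 without the same libraries (0.0864 and 0.125). Slc38a10 was lost without APRIL replicate 1 (0.0618) and Saline replicates 1 and 2 (0.0743 and 0.0547), and Slc6a9 without APRIL replicate 1 (0.125) and Saline replicate 1 (0.216). Slc6a6, a taurine transporter, had an adjusted p of 0.0516 when only the libraries of the 2 groups were fitted.

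**Figure D4:**
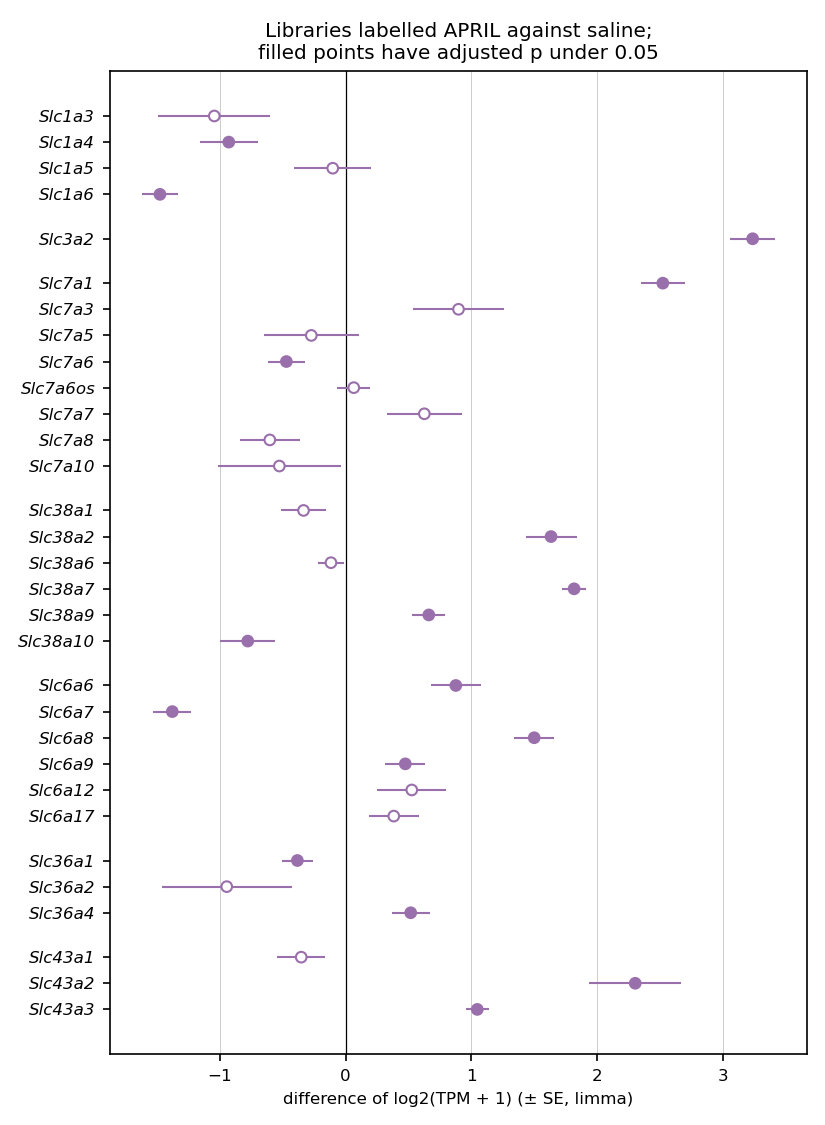
Difference of log2(TPM + 1) between the libraries labelled APRIL and saline (horizontal axis, ± SE from limma) for the 31 tested transporter genes in rows, with filled points for adjusted p under 0.05. Slc3a2, Slc7a1 and Slc43a2 lie farthest to the right, at 3.24, 2.52 and 2.30, while the light chain Slc7a5 lies at -0.27 and is open.

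Other genes of amino acid handling, in 7 lists, were read beside the transporters. With BAFF 0 genes of these lists passed in limma, and 1 had an unadjusted p under 0.05, beside 0.0141% and 2.84% of all genes. Of 18 ATF4 targets outside the transporters, 4 fell and 2 rose with LPS, beside 0.932% and 2.87% of all genes. The list median was -0.48, beside -0.01 over all genes. Trib3, a pseudokinase, had 7.18 and 9.57 TPM with LPS, against 36.2 and 40.7 TPM with saline (adjusted p 0.00144). Ddit3 (CHOP), a transcription factor of the same response, had 38.5 and 43.3 TPM with LPS, against 134 and 112 TPM with saline (adjusted p 0.000858). The transcription factor Atf5 fell by 1.37 on the log2(TPM + 1) scale, and Ddit4, an inhibitor of mTORC1, rose by 1.03.

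With norepinephrine Ddit3 and Trib3 were the 2 of 18 ATF4 targets called, both lower, beside 0.0847% of all genes called lower. Their differences were -1.46 and -1.45, with adjusted p of 0.0204 and 0.0280 in limma. The list median was -0.30, beside 0.04 over all genes. In the libraries labelled APRIL, 8 of the 18 were higher and 4 lower, beside 33.1% and 25.0% of all genes, with Ddit3 at 773 and 837 TPM, against 134 and 112 TPM with saline. Without those libraries in the fit the list held 2 higher and 6 lower calls with LPS and 1 higher and 4 lower with norepinephrine. That fit called 6.51% of all genes with LPS and 5.95% with norepinephrine, in either direction.

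Among 20 cytosolic aminoacyl-tRNA synthetases, which charge tRNAs with amino acids, Sars, Aars and Eprs fell with LPS, by 0.58, 0.68 and 0.56. Of all genes 0.932% fell with LPS. With norepinephrine 0 of the 20 passed in limma, 13 were lower at an unadjusted p under 0.05 (17.6% of all genes in either direction), and both libraries lay below saline in 17 (22.9% of all genes), with a median of -0.49. Of 14 genes of serine, glycine, proline and asparagine synthesis, 0 passed with LPS in limma. Before adjustment 7 were lower at p under 0.05, beside 16.5% of all genes in either direction. With norepinephrine 1 passed as lower (0.0847% of all genes), the mitochondrial folate enzyme Mthfd2. It had 16.6 and 24.0 TPM with norepinephrine, against 40.4 and 43.4 TPM with saline.

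Of 19 genes of branched-chain amino acid breakdown, Bcat2, the mitochondrial aminotransferase, and Mccc1 fell with LPS, by 0.84 and 0.54 (0.932% of all genes fell). Both LPS libraries lay below saline in 12 (25.5% of all genes). Set against norepinephrine directly, 6 of the 19 were lower with LPS and 0 higher in limma, beside 4.19% of all genes lower and 3.62% higher. Before adjustment 12 were lower and 0 higher, beside 25% of all genes in either direction. The list median was -0.61, beside -0.04 over all genes. The fit without the libraries labelled APRIL called 8 lower with LPS, 3 higher with norepinephrine and 13 lower in the direct comparison, beside 6.51%, 5.95% and 15.4% of all genes in either direction. Adipocyte markers, given above, were likewise lower with LPS and higher with norepinephrine, and their part in this list was not tested.

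Of 26 genes of amino acid sensing by mTORC1, 0 passed with LPS in limma, and 4 had an unadjusted p under 0.05, beside 16.5% of all genes. With norepinephrine 1 passed as higher (0.614% of all genes): Flcn, a GTPase activator of this pathway. It had 27.0 and 21.7 TPM with norepinephrine, against 12.1 and 12.2 TPM with saline. Among 14 other amino acid and peptide carriers 1 rose with LPS (2.87% of all genes rose): Slc15a3, a lysosomal peptide transporter, at 58.3 and 30.0 TPM, against 8.05 and 2.86 TPM with saline. Of 10 glutamine and glutamate enzymes 1 fell with LPS (0.932% of all genes fell), Ggt5, which cleaves glutathione, by 0.99. In the libraries labelled APRIL the sensing list held 13 higher and 6 lower calls, beside 33.1% and 25.0% of all genes, led by the GTPase Rragd at 31.1 and 28.3 TPM, against 0.527 and 0.311 TPM with saline.

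Most calls named from these lists with LPS or norepinephrine were lost when 1 library was left out. With norepinephrine, the calls of Ddit3, Trib3, Mthfd2 and Flcn were lost in limma when either norepinephrine library or either saline library was left out, with adjusted p of 0.0532 to 0.0944 for Ddit3, 0.1295 to 0.189 for Trib3, 0.0821 to 0.279 for Mthfd2 and 0.134 to 0.275 for Flcn. With LPS, Ddit3 and Trib3 passed without any one of the LPS and saline libraries. Ddit4, Sars and Aars passed in none of those 4 fits (0.0606 to 0.294). Bcat2, Mccc1, Eprs and Ggt5 passed only in the one without LPS replicate 2 (0.0304 to 0.0418), Atf5 only in those without an LPS library and Slc15a3 only in those without LPS replicate 2 or Saline replicate 1.

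**Figure D5:**
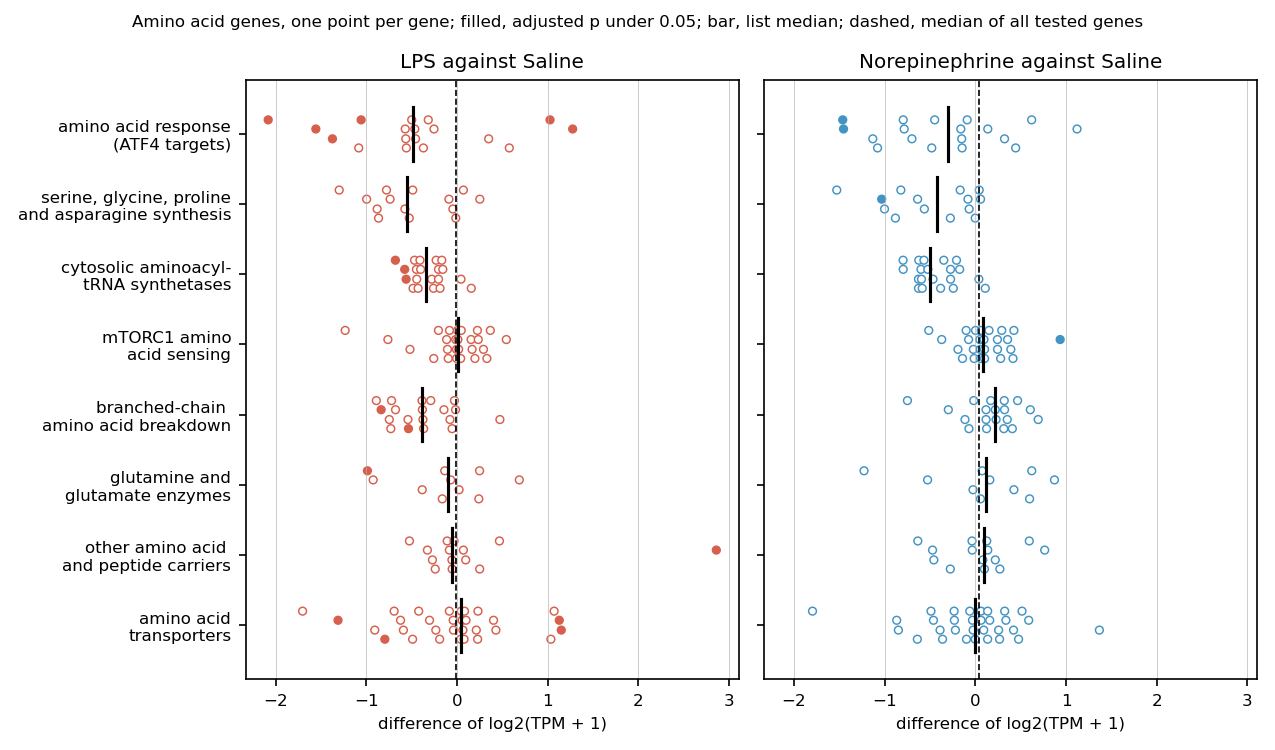
Difference of log2(TPM + 1) from saline (horizontal axis) for every tested gene of 7 amino acid lists and the transporters, in rows, with LPS and norepinephrine in separate panels, filled points for adjusted p under 0.05, a bar at each list's median and a dashed line at the median of all tested genes. The medians of the ATF4 targets lie at -0.48 with LPS and -0.30 with norepinephrine, and the transporters scatter on both sides of 0 in both panels.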

How the data were processed

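RNA from 10 libraries was analysed as deposited by the authors, in TPM per gene. Per the submitters' processing notes kallisto (version not given) and the mm10 build were used; annotation release, summing to genes and strand are not given in the sources used here. The deposited TPM hold no counts, so depth and counting error are unknown. TPM summed to 953553 to 964726 per library, with 15.0% to 22.4% in mitochondrially encoded genes. GENCODE M21 gave symbols to 27458 of 28987 IDs.

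The test used log2(TPM + 1) of the 14166 genes that reached 1 TPM in 2 or more libraries. Version 3.58.1 of limma (R 4.3.3) fitted 5 group means with a mean-variance trend and 5 residual degrees of freedom, with Benjamini-Hochberg adjustment at 0.05 within each comparison. This scale understates changes of low genes. An F test without the libraries labelled APRIL used 8 libraries. The fit was tested on simulated data with known changes.

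Members and lists were chosen with earlier results of these data known. Values in every library are given for members past the threshold with BAFF, LPS or norepinephrine, the 6 of smallest p for APRIL, the 5 highest, the highest of each family and further members of smallest F test p to reach 15; other members are given for their role. Listed genes are named where past the threshold, at most 4 per list and comparison. Promoter windows are from RefSeq (GRCm38.p6); stretches inside annotated exons are not printed. Alternatives were other pseudocounts (0.1, 0.5), filters, scalings, variance models, samples in the fit, a replicate block, left-out libraries and a threshold of 0.1.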

Additional observations from a re-analysis of the deposited data

How the results depend on the processing

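No member past the threshold changed direction under any alternative run; some members that missed it did. BAFF kept 0 called members and the libraries labelled APRIL 12 to 22 (17 in the report) under every alternative; leaving out 1 library gave 12 to 18. For LPS (4 members), a threshold of 0.1 gave 7, no filter on low values 2, and fitting only the compared libraries 2; median-ratio scaling gave 2 higher and 4 lower, and leaving out 1 library 1 to 4. For norepinephrine (0), a threshold of 0.1 gave 3, median-ratio scaling 1, only the compared libraries 1, leaving out the libraries labelled APRIL 3, and leaving out 1 library 0. For LPS against norepinephrine (5), a threshold of 0.1 gave 8, leaving out the libraries labelled APRIL 8, and leaving out 1 library 2 to 3. The F test over 4 groups (10) gave 3 with no filter and 4 to 9 when 1 library was left out; over 5 groups (20) it gave 16 to 24. The cause of these changes was not tested, except that a looser threshold and fewer libraries or more genes act by construction. Over all genes, LPS called 539 genes, 226 with only the compared libraries and 922 without the libraries labelled APRIL; norepinephrine called 99, 843 without those libraries and 0 to 1 when 1 library was left out. Fitting only the compared libraries is not applicable to the F tests, and leaving out the libraries labelled APRIL is not applicable to comparisons that use them.

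Labels give each group replicates 1 and 2, but same-numbered libraries deviated together only in part (correlations of -0.108 to 0.0264 in pairs with a library labelled APRIL and 0.272 to 0.479 in the other pairs). Macrophage markers, given above, were higher in replicate 1 of every group. No label says what a replicate number shares and there are only 2 numbers, so they were not taken as pairs. With the replicate block the called members were 0 for BAFF, 19 for APRIL, 5 for LPS, 1 for norepinephrine (Slc7a1), 7 for LPS against norepinephrine (without Slc1a5, at an adjusted p of 0.0574), 22 over 5 groups and 12 over 4.

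With 2 libraries a group and no counts, the 95% interval of a difference from saline had a reach to either side of 0.44 log2 units (median over members), and at most 1.198.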
